A study of Homo sapiens with 10 samples.

Results

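The genes described here act at the centromere, the kinetochore, the spindle and the cleavage furrow of dividing cells. They were chosen by name: 55 symbols were listed, and a gene counted as measured when a row of the array table was annotated with that 1 symbol, the row with the highest mean over all arrays standing for the gene. By that rule 48 of the 55 were measured, among 14232 genes in all. The other 7 (CENPL, CENPN, SKA3, BUB1B, NCAPG, SMC4 and RACGAP1) had only rows that carry several symbols and are given separately.

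The arrays were Affymetrix GeneChip Exon 1.0 ST arrays of total RNA from SH-SY5Y, an established cell line of human neuroblastoma. Of the 10 arrays, 5 came from untreated cells (ctrl 7, 11, 13, 17 and 19, by their title numbers) and 5 from cells of the same line treated with paraquat (paraquat 8, 12, 14, 18 and 20). Paraquat is a herbicide that cycles between redox states and so produces superoxide. The labels give neither its dose nor its duration, and they do not say if each array had its own culture. The p-values therefore rest on array-to-array spread alone, part or all of which may be technical.

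Before division, each chromosome is copied and its copies are held together. At the centromere, nucleosomes that contain the histone variant CENPA carry an inner layer of CENP proteins, and on it the outer kinetochore is built, which grips microtubules. The spindle checkpoint holds back the anaphase-promoting complex until all chromosomes are attached. Then CDC20 activates that complex, securin is destroyed, separase cuts cohesin and the copies part, and the central spindle and the contractile ring divide the cell. Many of these genes are transcribed mainly in G2 and mitosis, so their transcripts are widely read as marks of proliferation.

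Transcripts of the group were lower after paraquat. Of the 48 measured genes, 43 fell and 0 rose at an adjusted p under 0.05 (limma, moderated linear model, Benjamini-Hochberg adjustment over all rows). At an unadjusted p under 0.05 the counts were also 43 and 0. Among all 14232 genes 14.2% fell and 9.55% rose. The median log2 change of the 48 was -1.06, or 48.1% of the control level, against 0.00 for all genes. All 5 paraquat arrays lay below all 5 control arrays for 42 of the 48, or 87.5%, against 11.6% of all genes. A decrease of at least 2-fold that passed the test was seen in 27 of them, or 56.2%, against 2.32% of all genes. The list was drawn up with earlier results of these data known, so these shares describe it and do not test it. In RNA from whole cultures, fewer dividing cells and less of these transcripts per dividing cell cannot be told apart.

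**Figure D1:**
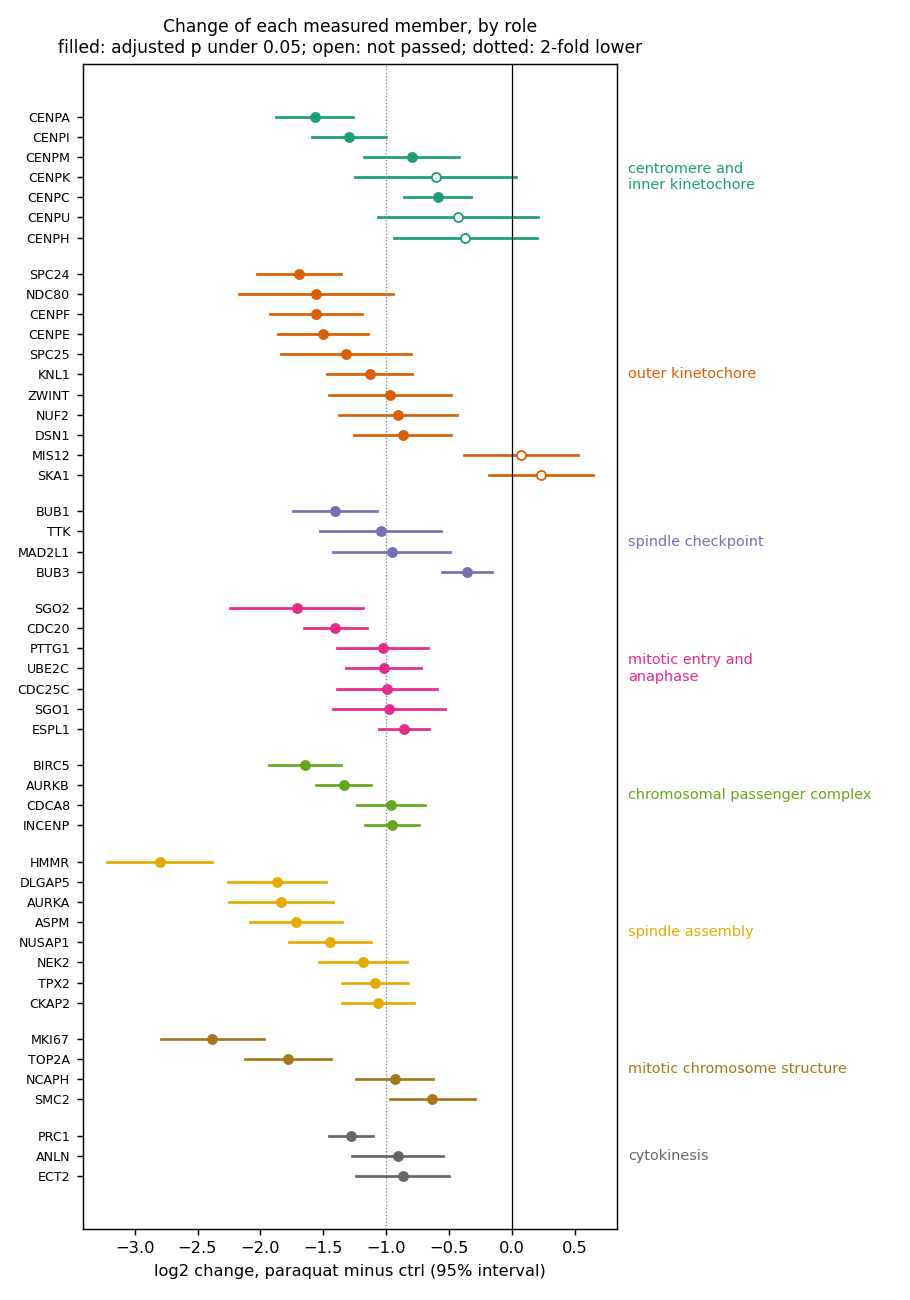
Log2 change of each of the 48 measured genes, paraquat minus ctrl (x axis), grouped by role; points are changes and bars are 95% intervals from the limma model, filled where the adjusted p was under 0.05. All points but MIS12 and SKA1 lie below 0, and all 8 spindle assembly genes lie beyond the 2-fold line.

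The decrease was deepest in HMMR (-2.80 ± 0.19, log2 change ± SE), which binds hyaluronan and spindle microtubules, and in MKI67 (-2.38 ± 0.19), the proliferation antigen Ki-67 that coats mitotic chromosomes. The others ranged from DLGAP5 at -1.87 to BUB3 at -0.36 among those that fell, and 5 genes did not pass: CENPH, CENPK, CENPU, MIS12 and SKA1. By role, the share that fell was 4 of 7 for the centromere and inner kinetochore, 9 of 11 for the outer kinetochore, and all measured genes of the other roles: 4 of 4 checkpoint genes, 7 of 7 of mitotic entry and anaphase, 4 of 4 passenger complex genes, 8 of 8 spindle assembly genes, 4 of 4 of chromosome structure and 3 of 3 of cytokinesis. Median log2 changes ran from -0.61 for the centromere and inner kinetochore to -1.58 for spindle assembly. In between lay cytokinesis (-0.91), the checkpoint (-1.001), mitotic entry and anaphase (-1.02), the outer kinetochore (-1.13), the passenger complex (-1.15) and chromosome structure (-1.36). The roles hold few genes each, and the differences between their medians were not tested.

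Promoters of genes expressed in G2 and mitosis are known for the cell cycle genes homology region (CHR, written TTTGAA or else TTCGAA), which binds the DREAM and MuvB-FOXM1 complexes, and for CCAAT boxes, which bind NF-Y. RefSeq promoters of GRCh38.p14, each spanning 250 bases before to 50 bases after a start, were held for 44 of the 55 listed genes, and both motifs were searched on both strands. The 4 promoters below belong to the genes with the largest decreases among those with a row of their own and a CHR within 100 bases of the start. They are printed 5′ to 3′ on the gene's strand from 180 bases before the start to 20 after it, and capitals mark CHR and CCAAT matches, which can overlap and read as TTCAAA (for CHR) or ATTGG (for CCAAT) when they lie on the opposite strand.
HMMR: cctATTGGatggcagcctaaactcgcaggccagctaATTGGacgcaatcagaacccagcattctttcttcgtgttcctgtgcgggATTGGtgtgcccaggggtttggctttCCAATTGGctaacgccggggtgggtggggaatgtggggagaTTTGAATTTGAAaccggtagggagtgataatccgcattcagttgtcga
MKI67: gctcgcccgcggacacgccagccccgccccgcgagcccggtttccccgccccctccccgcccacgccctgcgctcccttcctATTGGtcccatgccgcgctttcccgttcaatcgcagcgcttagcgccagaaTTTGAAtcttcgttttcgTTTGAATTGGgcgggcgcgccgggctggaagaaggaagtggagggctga
DLGAP5: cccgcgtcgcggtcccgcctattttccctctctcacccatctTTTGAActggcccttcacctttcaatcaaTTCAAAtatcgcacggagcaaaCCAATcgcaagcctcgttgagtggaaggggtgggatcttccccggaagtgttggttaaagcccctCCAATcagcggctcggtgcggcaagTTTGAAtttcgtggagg
CENPA: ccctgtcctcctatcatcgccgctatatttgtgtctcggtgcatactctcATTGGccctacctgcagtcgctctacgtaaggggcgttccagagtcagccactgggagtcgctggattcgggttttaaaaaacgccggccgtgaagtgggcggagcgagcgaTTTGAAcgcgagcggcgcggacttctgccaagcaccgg

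These windows are chr5:163460452-163460651, plus strand for HMMR, chr10:128126404-128126603, minus strand for MKI67, chr14:55191566-55191765, minus strand for DLGAP5 and chr2:26785876-26786075, plus strand for CENPA. HMMR had a pair of adjacent CHR matches whose first bases lie 28 and 22 bases before the start, behind a row of CCAAT matches. MKI67 had CHR matches 47 and 29 bases before the start, the nearer of which overlaps a CCAAT match on the opposite strand. In CENPA the match lay 18 bases before the start, and in DLGAP5 a match began at base 4 after it, with others 138 and 109 bases before. The promoter of MIS12, chosen as a contrast after its values were seen, belongs to a gene that did not pass the test (chr17:5486194-5486393, plus strand). It held CCAAT matches and no CHR match in the printed window.
MIS12: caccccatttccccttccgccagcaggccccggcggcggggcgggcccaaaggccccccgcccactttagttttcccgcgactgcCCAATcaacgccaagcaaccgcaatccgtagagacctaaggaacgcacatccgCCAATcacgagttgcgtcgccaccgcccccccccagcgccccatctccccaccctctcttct

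A CHR within 100 bases of a start was found in 29 of the 44 listed genes with a promoter (65.9%), against 9.36% of 27305 genes and 7.60% of all 35116 promoter entries. A CCAAT match anywhere in the window was found in 31 of 44 (70.5%), against 39.7% of genes and 34.6% of entries. Both together were found in 20 of 44 (45.5%), against 3.87% of genes and 3.10% of entries. Among the 11386 genes of the array with a promoter, the shares were 7.78% for a near CHR, 43.0% for CCAAT and 3.46% for both. Of the measured genes with a promoter, both were held by 19 of 35 that fell and 0 of 4 that did not pass. A near CHR, with or without a CCAAT match, was held by 23 of 35 and 1 of 4. A CCAAT match, with or without a near CHR, was held by 27 of 35 and 3 of 4. E2F-type letters (the word TTCGCGC, the word TTGGCGC, the word TTCCCGC or the word TTGCCGC, on either strand) were found in 16 of 44 (36.4%), against 15.3% of genes, 13.0% of entries and 21.2% of array genes with a promoter. They were found in 10 of the 35 that fell (28.6%) and 3 of the 4 that did not pass. With 4 genes that did not pass, these splits are a description only. Among other genes of the array, 22.7% of the 375 with both a near CHR and a CCAAT match fell, against 13.9% of those without both. For each motif, whether or not the others were present, the shares that fell, with and without it, were 17.9% and 13.9% for a near CHR, 17.3% and 11.9% for CCAAT, and 19.3% and 12.8% for E2F-type letters. The genes counted for near CHR and for CCAAT include those with both, so these shares do not separate a motif from the pair. These are matches of letters and do not show that a factor bound.

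Of the 7 centromere and inner kinetochore genes, 4 fell with no overlap between the groups and 3 varied widely within them. CENPA (transcript cluster 2473991), the histone variant that marks the centromere, read 8.72, 9.07, 8.84, 8.70 and 8.51 on ctrl 7, 11, 13, 17 and 19, and 7.37, 7.34, 7.31, 6.76 and 7.23 on paraquat 8, 12, 14, 18 and 20 (log2 expression; arrays are in this order throughout). The groups did not overlap, and the change was -1.57 ± 0.14 (2.96-fold lower, adjusted p = 2.23e-05). CENPI, of the inner CENP network, changed by -1.30 ± 0.13, CENPM by -0.80 ± 0.17 and CENPC, the scaffold that links CENPA chromatin to the outer layer, by -0.59 ± 0.12. CENPA fell further than CENPC: their log2 difference shifted by -0.98 ± 0.15 between the groups (exact two-sided permutation test over arrays, p = 0.00794, adjusted p = 0.0139 over 7 pairs of genes). All 7 pairs, here and below, were chosen with earlier results of these data known. Their p-values are therefore no independent support for a difference.

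CENPH, CENPK and CENPU, also of the inner network, did not pass. CENPH read 7.49, 8.32, 7.22, 7.25 and 7.04 in controls and 7.31, 7.31, 7.51, 6.45 and 6.88 after paraquat (change -0.37 ± 0.26, 95% interval -0.94 to 0.20, adjusted p = 0.390). CENPK read 8.44, 9.38, 7.94, 8.12 and 8.03 in controls and 7.92, 8.12, 8.23, 7.12 and 7.50 after paraquat (change -0.61 ± 0.29, interval -1.25 to 0.03, adjusted p = 0.188). CENPU read 7.58, 8.53, 7.51, 7.37 and 7.00 in controls and 7.10, 7.70, 7.56, 6.53 and 6.95 after paraquat (change -0.43 ± 0.29, interval -1.07 to 0.21, adjusted p = 0.371). In each of these 3 genes ctrl 11 was the highest array and paraquat 18 the lowest, and the groups overlapped. Their within-group SDs, 0.47, 0.53 and 0.53, were among the 4 largest of the 48 genes, whose median was 0.28. Without ctrl 11 their changes were -0.16, -0.36 and -0.19, and they did not pass there either.

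In the outer kinetochore most genes fell and a pair did not. The Ndc80 complex, the main microtubule coupler, fell in all 4 subunits: SPC24 by -1.69 ± 0.15, NDC80 by -1.56 ± 0.28, SPC25 by -1.32 ± 0.24 and NUF2 by -0.90 ± 0.21. SPC24 (transcript cluster 3850660) read 8.58, 9.06, 8.89, 8.88 and 8.79 in controls and 7.42, 7.38, 7.29, 6.96 and 6.69 after paraquat, with no overlap (3.23-fold lower, adjusted p = 2.26e-05). SPC24 and SPC25, which bind each other, did not differ detectably in their change (SPC25 minus SPC24 0.37, 95% interval -0.13 to 0.88, exact permutation p = 0.119, adjusted p = 0.119). NDC80 was high on ctrl 11, at 8.12 against 6.39 to 6.89 on the other controls.

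KNL1, the platform for checkpoint proteins, changed by -1.13 ± 0.15, its partner ZWINT by -0.97 ± 0.22 and DSN1, of the Mis12 complex, by -0.87 ± 0.17. MIS12, a subunit of the same complex as DSN1, read 9.34, 10.40, 9.36, 9.52 and 9.30 in controls and 9.47, 10.03, 9.69, 9.54 and 9.56 after paraquat. The groups overlapped, with ctrl 11 and paraquat 12 the highest of their groups (change 0.07 ± 0.21, interval -0.38 to 0.53, adjusted p = 0.867). NDC80 minus MIS12 shifted by -1.63 ± 0.13 (exact permutation p = 0.00794, adjusted p = 0.0139). That difference ran from -2.91 to -2.29 on the control arrays and from -4.42 to -3.96 on the paraquat arrays. SKA1, of the complex that follows shrinking microtubules, read 5.71, 6.44, 5.84, 5.78 and 5.42 in controls and 6.12, 5.85, 6.52, 5.84 and 5.99 after paraquat (change 0.23 ± 0.19, interval -0.19 to 0.64, adjusted p = 0.479). Its groups overlapped too, with ctrl 11 and paraquat 14 the highest. Without ctrl 11, MIS12 had a change of 0.28 and SKA1 of 0.38, and neither passed (adjusted p = 0.143 and 0.110).

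CENPF, a large protein of the outer kinetochore and nuclear envelope, changed by -1.56 ± 0.17, and CENPE, the kinesin that brings chromosomes to the spindle equator, by -1.50 ± 0.16. The paraquat mean of CENPE, 4.18, lay under 5.52, the mean level used as the limit in the filter on dim rows, as did those of HMMR (5.03), SGO2 (5.39) and NDC80 (5.42), so the size of these decreases is less certain. No filter on low values was used otherwise, so all 48 genes were tested.

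Checkpoint genes fell by unequal amounts. BUB1 (transcript cluster 2570616), the kinase that recruits checkpoint proteins to the kinetochore, read 9.15, 9.10, 8.96, 8.99 and 8.79 in controls and 7.90, 7.53, 7.95, 7.19 and 7.38 after paraquat. The groups did not overlap, and the change was -1.41 ± 0.15 (2.65-fold lower, adjusted p = 7.81e-05). TTK, the kinase MPS1 that starts the signal, changed by -1.05 ± 0.22, and MAD2L1, the MAD2 protein that restrains CDC20, by -0.96 ± 0.21. BUB3, which binds BUB1 and also has functions outside mitosis, read 11.05, 11.25, 10.89, 11.12 and 10.93 in controls and 10.83, 10.68, 10.65, 10.61 and 10.68 after paraquat. Its groups did not overlap although the change was small (-0.36 ± 0.09, adjusted p = 0.0158). BUB1 fell further than BUB3, by a log2 difference of -1.05 ± 0.14 (exact permutation p = 0.00794, adjusted p = 0.0139).

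**Figure D2:**
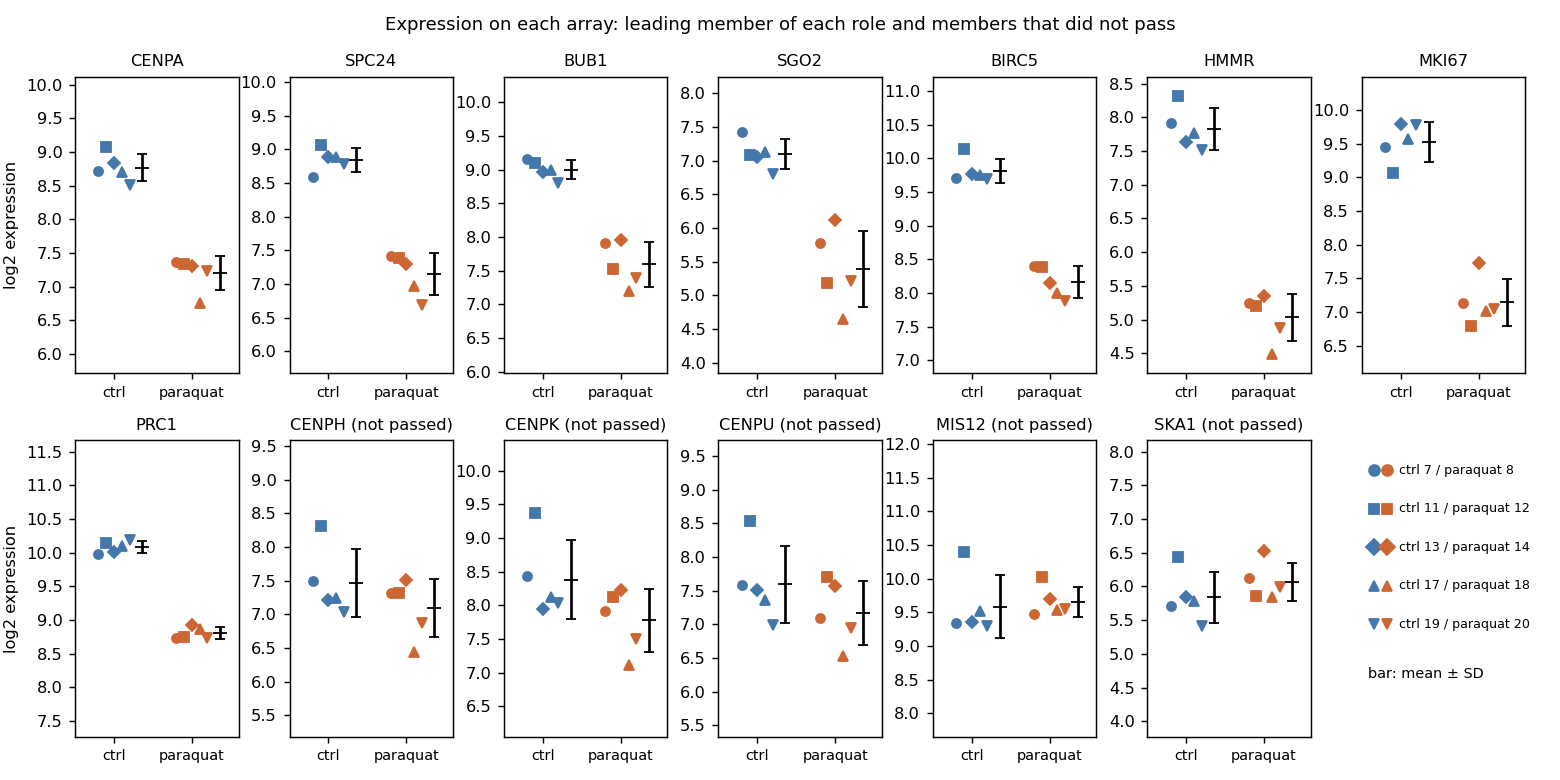
Log2 expression on each array (y axis, with the same span in each panel) for the leading gene of each role and for the 5 genes that did not pass; bars are mean ± SD over 5 arrays, and marker shapes follow the order of the title numbers, which the labels do not call pairs. The 8 leading genes show no overlap between ctrl and paraquat, while CENPH, CENPK, CENPU, MIS12 and SKA1 overlap and have their highest control value on ctrl 11.

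Genes of mitotic entry and anaphase all fell. CDC20, the activator of the anaphase-promoting complex, changed by -1.40 ± 0.11 and UBE2C, the ubiquitin-conjugating enzyme of that complex, by -1.02 ± 0.14. CDC20 minus MAD2L1, its inhibitor, shifted by -0.45 (95% interval -0.93 to 0.04, exact permutation p = 0.0952, adjusted p = 0.111), which did not pass, though it did without ctrl 11 (-0.57). PTTG1, which is securin, changed by -1.03 ± 0.16, ESPL1, the protease separase that securin holds back, by -0.86 ± 0.09, and CDC25C, a phosphatase that activates CDK1, by -0.996 ± 0.18.

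The shugoshins protect cohesin at the centromere until anaphase. SGO2 (transcript cluster 2522212) read 7.43, 7.09, 7.06, 7.13 and 6.81 in controls and 5.78, 5.18, 6.11, 4.66 and 5.22 after paraquat (change -1.71 ± 0.24, adjusted p = 0.000506). Its groups did not overlap, and the paraquat arrays spread more widely (SD 0.57) than the controls (SD 0.22). SGO1 changed by -0.98 ± 0.20. SGO2 fell further than SGO1: SGO1 minus SGO2 shifted by 0.74 ± 0.14 (exact permutation p = 0.00794, adjusted p = 0.0139).

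The chromosomal passenger complex corrects faulty attachments and then moves to the central spindle. All 4 of its genes fell, with small errors. BIRC5 (transcript cluster 3736290), the targeting subunit survivin, read 9.70, 10.13, 9.77, 9.75 and 9.70 in controls and 8.40, 8.39, 8.15, 8.00 and 7.88 after paraquat, with no overlap (change -1.65 ± 0.13, adjusted p = 8.92e-06). A dimmer row of BIRC5 (transcript cluster 3772187) also fell, by -1.16 ± 0.21 (adjusted p = 0.00286). AURKB, the kinase of the complex, changed by -1.34 ± 0.10, the subunit CDCA8, which is borealin, by -0.96 ± 0.12 and the scaffold INCENP by -0.96 ± 0.10.

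The spindle assembly genes held the gene with the largest decrease, HMMR, and each was at least 2-fold lower. HMMR (transcript cluster 2838656) read 7.92, 8.32, 7.64, 7.76 and 7.52 in controls and 5.25, 5.20, 5.34, 4.48 and 4.87 after paraquat, 6.97-fold lower with more than 2 log2 units between the nearest arrays of the groups (adjusted p = 3.44e-06). DLGAP5, a microtubule-binding protein of the spindle, changed by -1.87 ± 0.18, AURKA, the kinase of spindle poles, by -1.84 ± 0.19 and ASPM, of the spindle poles, by -1.72 ± 0.17. NUSAP1, which bundles microtubules, changed by -1.45 ± 0.15, the centrosomal kinase NEK2 by -1.18 ± 0.16, TPX2, the activator of AURKA, by -1.09 ± 0.12 and CKAP2 by -1.07 ± 0.13. AURKA minus AURKB shifted by -0.50 (95% interval -0.99 to -0.01, exact permutation p = 0.0397), which did not pass after adjustment over the 7 pairs (adjusted p = 0.0556). It passed without paraquat 8 (-0.60) or without ctrl 13 (-0.61).

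Among genes of chromosome structure, MKI67 (transcript cluster 3312490) read 9.45, 9.07, 9.79, 9.56 and 9.77 in controls and 7.13, 6.79, 7.73, 7.02 and 7.05 after paraquat, with no overlap (5.22-fold lower, adjusted p = 8.52e-06). Here ctrl 11 was the lowest control, as it was for 3 of the 48 genes. TOP2A, the topoisomerase that untangles sister chromatids, changed by -1.78 ± 0.16 and NCAPH, of condensin I, by -0.93 ± 0.14. SMC2, the core subunit shared by both condensins, read 8.42, 8.56, 8.41, 8.43 and 8.10 in controls and 8.01, 7.57, 8.17, 7.38 and 7.62 after paraquat. It was the only gene that passed with overlapping groups, since paraquat 14 lay above ctrl 19 (change -0.63 ± 0.15, adjusted p = 0.0134), and without ctrl 11 and paraquat 12 together it no longer passed (adjusted p = 0.0561).

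Of the cytokinesis genes, PRC1 (transcript cluster 3639031), which bundles the microtubules of the central spindle, read 9.99, 10.14, 10.01, 10.09 and 10.19 in controls and 8.74, 8.75, 8.93, 8.87 and 8.74 after paraquat. Its within-group SD, 0.09, was the smallest of the 48 genes, and its change of -1.28 ± 0.08 had the smallest adjusted p of them (1.76e-06). ANLN, which is anillin of the contractile ring, changed by -0.91 ± 0.16, and ECT2, which activates RHOA at the cleavage site, by -0.87 ± 0.17.

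The 7 genes without a row of their own were on rows that could also measure other genes. A row assigned to BUB1B and PAK6 changed by -1.62 ± 0.13, a row of NCAPG and LCORL by -1.27 ± 0.18, a row of RACGAP1 and its pseudogene RACGAP1P1 by -1.23 ± 0.08 and a row of SMC4, MIR15B and MIR16-2 by -0.61 ± 0.15, and all of these passed. A second row of NCAPG, named LCORL first, had a change of -0.22 (adjusted p = 0.337), so the rows that name NCAPG disagreed. A second row of RACGAP1, named for the pseudogene first, had a change of -0.18 (adjusted p = 0.427). Its means of 2.96 in controls and 2.78 after paraquat lay far under 5.52, the limit for dim rows. That row left little room to show a decrease. A row led by SKA3 had a change of -0.45 (adjusted p = 0.146) and a row of CENPL, GAS5 and several small nucleolar RNAs of -0.37 (adjusted p = 0.207), and neither passed. For SKA3 the row named MRPL57 first had a change of -0.18 (adjusted p = 0.325). The rows of CENPN disagreed as well: the row named CENPN first and CMC2 second rose by 0.61 ± 0.16 (adjusted p = 0.0165), while the row with these names in the other order had a change of -0.77 ± 0.36 (adjusted p = 0.178). Of 5 shared rows of genes that also have their own, a row of PRIMPOL and CENPU fell by 0.81 on the log2 scale (adjusted p = 0.0453) and a row of SHB and CKAP2 rose by 0.29 (adjusted p = 0.0459). Those that name RAB3GAP2 with AURKA, SLC35F6 with CENPA, and MNAT1 with MAD2L1 had changes of 0.28, 0.18 and -0.18 and did not pass. With the rows led by the symbols of the 7 genes added, 47 of 55 fell and 1 rose. The pairs NCAPG and SMC2, SKA1 and SKA3, and ANLN and RACGAP1 were among the 10 chosen for a test of their difference and could not be tested for lack of such rows.

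Within each group the same arrays tended to be high or low for many of the genes. The mean deviation of the 48 genes from their means over all arrays was 0.55, 0.89, 0.50, 0.55 and 0.39 on the control arrays and -0.44, -0.56, -0.30, -0.87 and -0.71 on the paraquat arrays, so the groups did not overlap. Ctrl 11 was the highest control for 32 of the 48 genes, ctrl 19 the lowest for 29, paraquat 14 the highest paraquat array for 27 and paraquat 18 the lowest for 33. Over all genes the mean deviation of single arrays lay between -0.05 and 0.07, with ctrl 11 again the highest and paraquat 18 the lowest. The part of array differences in the spread of these genes was not tested. Without ctrl 11 and paraquat 12 the count that fell was 42, and with any 1 array left out it was 43.

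**Figure D3:**
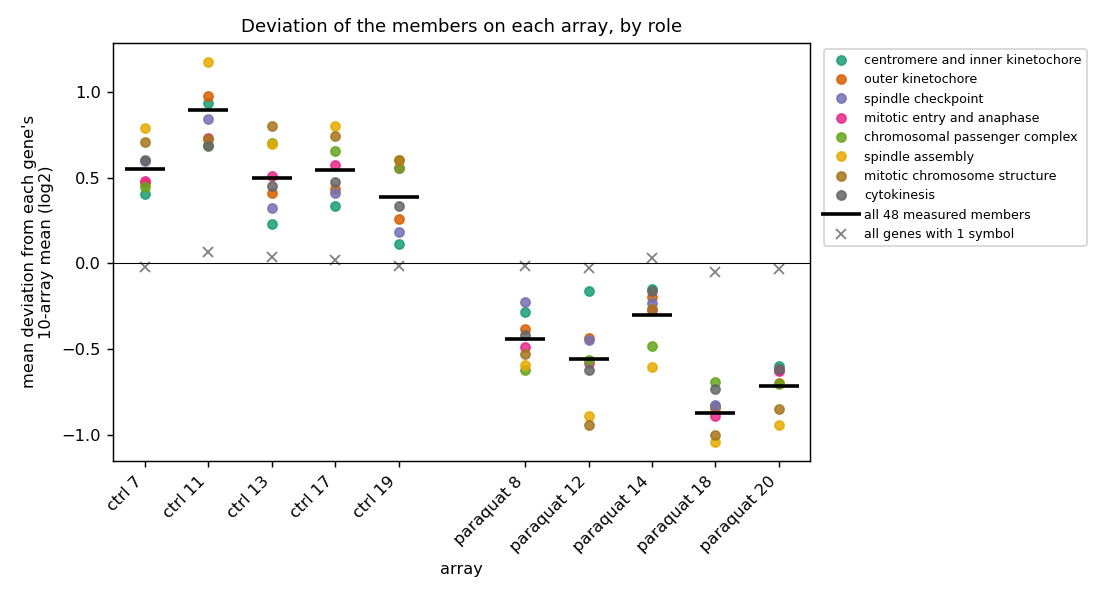
Mean deviation of the genes of each role (coloured points), of all 48 genes (black bars) and of all genes with 1 symbol (crosses) from their means over the 10 arrays (y axis, log2) on each array (x axis). The black bars lie between 0.39 and 0.89 on the control arrays and between -0.87 and -0.30 on the paraquat arrays, while the crosses stay near 0.

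Other genes of mitosis were taken from lists of complexes and functions. Against 14.2% of all genes, 33.3% of other centromere and kinetochore genes fell, 25% of the anaphase-promoting complex, 25% of cohesin, 66.7% of other condensins, 52.9% of other spindle genes, 45.5% of other cytokinesis genes and 52.9% of regulators. With 3 to 17 genes a list, a share of 25% is about 1 gene of 12 above that of all genes. Of 15 other centromere and kinetochore genes 5 fell and 0 rose (8 and 0 at an unadjusted p under 0.05 in limma), at a median of -0.36. OIP5, of the CENPA loading machinery, changed by -1.03, KNTC1, of the corona complex that recruits dynein, by -0.88 and NSL1, of the Mis12 complex, by -0.78. The CENPA chaperone HJURP changed by -0.57. Of 12 genes of the anaphase-promoting complex and its regulators 3 fell and 0 rose (5 and 0 unadjusted), at a median of -0.18: the inhibitor FBXO5, also called EMI1, by -1.40, and the subunits ANAPC5 by -0.77 and CDC27 by -0.49. Of 12 genes of cohesin and its regulators 3 fell and 0 rose (4 and 0 unadjusted), at a median of -0.20: the core subunits SMC3 (-0.60) and SMC1A (-0.44) and the protector CDCA5, which is sororin (-0.44). Of 3 other condensin subunits, NCAPD3 (-0.95) and NCAPG2 (-0.48) of condensin II fell, and NCAPH2 had a change of -0.04. The count for these condensin subunits was 1 without ctrl 7, ctrl 17, paraquat 18 or paraquat 20, and that for cohesin was 5 without paraquat 14. The difference in share between these lists and the 48 genes was not tested.

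Of 17 other spindle and centrosome genes 9 fell and 0 rose (10 and 0 unadjusted), at a median of -0.45. FAM83D, which recruits a kinase to the spindle, changed by -1.59, TACC3, of the bridges between spindle microtubules, by -1.39 and PSRC1 by -1.36. Of 11 other cytokinesis genes 5 fell and 0 rose (5 and 1 unadjusted), at a median of -0.29, led by the polo-like kinase PLK1 (-1.54), citron kinase CIT (-1.19) and the kinesin KIF14 (-1.15). The abscission gene CEP55 also fell, with no overlap between the groups (-0.74 ± 0.14, limma adjusted p = 0.00352). CHMP1A, CHMP2A, CHMP4B and TSG101, also of abscission, did not pass, with values of -0.09, -0.29, 0.15 and 0.00, nor did RHOA at -0.22.

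**Figure D4:**
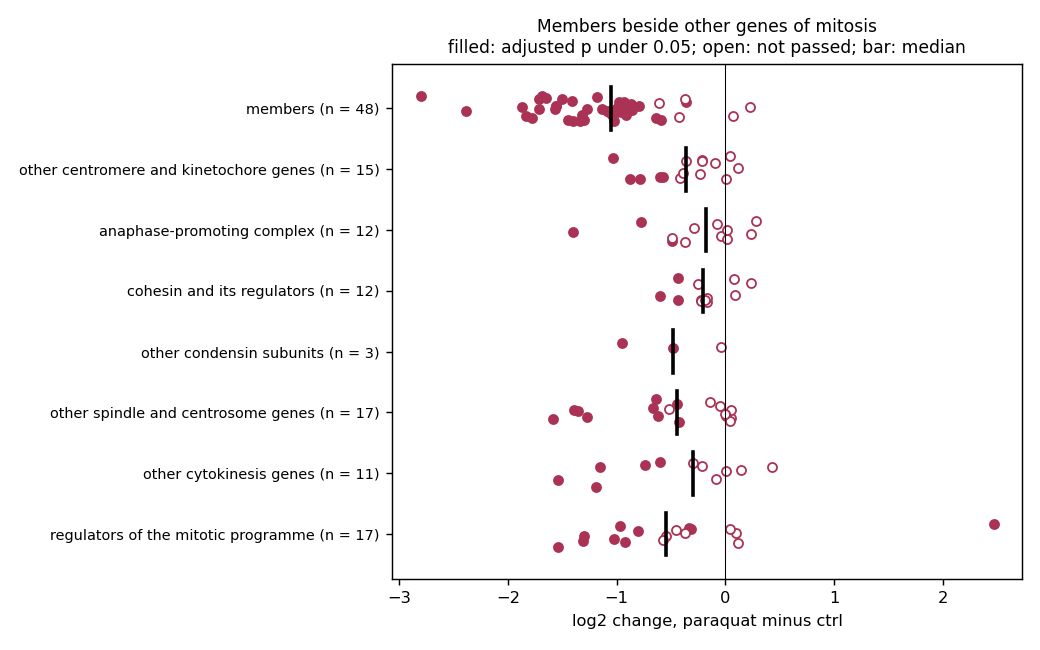
Log2 changes, paraquat minus ctrl (x axis), of the 48 genes described here and of 7 lists of other genes of mitosis (rows, number measured in brackets); points are genes, filled where the adjusted p was under 0.05, and black bars are medians. The median of the 48 genes is -1.06 and those of the other lists lie between -0.55 and -0.18; the filled point at 2.47 is CDKN1A.

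Among 17 regulators of the mitotic programme 9 fell and 1 rose (12 and 1 unadjusted), at a median of -0.55. CCNB2 (-1.54), CCNA2 (-1.31) and CCNB1 (-1.30), the cyclins of G2 and mitosis, fell most, and FOXM1, the transcription factor that acts with MuvB on many G2 and mitosis promoters, changed by -1.02 ± 0.15 (adjusted p = 0.000591). RBL1, the pocket protein p107, changed by -0.80, and the CDK1 kinase itself by -0.92. CDKN1A, the CDK inhibitor p21 that p53 induces, was the gene that rose (2.47 ± 0.11, adjusted p = 1.98e-07). MYBL2, LIN9, LIN54 and E2F4, other proteins of the DREAM and MuvB complexes, did not pass, with values of -0.37, -0.55, 0.11 and 0.09.

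As a check of the label, 8 of 12 markers of sympathetic neuroblasts were measured, with a mean log2 level over the list of 9.52 to 9.72 on the control arrays and 8.94 to 9.07 on the paraquat arrays. Of these 6 fell (75%, against 14.2% of all genes) and 0 rose, led by CHGA (-1.66), ISL1 (-1.21) and PHOX2A (-1.08). TH did not pass (-0.06), and its means of 6.31 in controls and 6.25 after paraquat lay under the array medians of 6.78 to 6.93. GAP43 had a change of 0.62 (adjusted p = 0.0532), and 1 marker rose under 9 of the 21 alternatives, among them without ctrl 11, paraquat 18 or paraquat 20. Of 6 leukocyte markers 4 were measured, with a mean of 4.48 to 4.74 on control and 5.02 to 5.21 on paraquat arrays. CD68 (1.33) and CD14 (0.64) rose (2 of the 4, where 9.55% of all genes rose, and 1 of the 4 under the minimum fold of 1.2). CD68 had means of 7.74 in controls and 9.07 after paraquat, above the array medians, and CD14 of 5.21 and 5.86, below them. PTPRC and CD3E did not pass and had group means of 2.67 to 2.87, far under the array medians of 6.78 to 6.93. Of 9 glial and fibroblast markers 7 were measured, with a mean of 6.23 to 6.52 on control and 6.04 to 6.30 on paraquat arrays, and none passed the limma test (0 adjusted, and 2 lower and 0 higher unadjusted, namely COL1A1 at -0.51 and DCN at -0.997). PDGFRB (8.98), DCN (8.12) and COL1A1 (7.51) had control means above the array medians, and the others measured from this list had control means below them. Of the glial and fibroblast markers 2 fell without dim rows, with array weights, with adjacent numbers as a block and without ctrl 11 and paraquat 12 together, and 1 fell without ctrl 7, ctrl 11, ctrl 19 or paraquat 12. Whether these shifts had a part in the decrease of the mitotic genes was not tested.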

How the data were processed

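The authors deposited log2 expression values made with RMA, per the submitters' processing notes, which corrects background, normalises between arrays and summarises probes; their software, filters and build: not given in the sources used here. A log2 scale was read from the values (1.07 to 14.37). Each of the 22011 rows is a transcript cluster of the exon array; 14432 carry 1 symbol in the platform annotation, 2408 several and 5171 none. RMA compresses changes of dim rows.

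Paraquat and ctrl were compared on the deposited values with limma 3.58.1 in R 4.3.3, with the group as the only term, 5 arrays each, 8 residual and 3.06 prior degrees of freedom and Benjamini-Hochberg adjustment over all rows. A change is given with its moderated standard error (SE), a mean with its SD. The number of arrays limits the precision (median SE of a change 0.13 over all rows and 0.16 over the 48 genes). Array medians lay between 6.78 and 6.93. Differences between 7 pairs of genes were tested by exact permutation over the 252 assignments of arrays, where 0.00794 is the smallest p. The fit was tested on simulated data.

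The members, roles, lists, pairs and motifs were chosen with earlier results of these data known. By the rule for names, all measured members are named, with array values for the leading gene of each role and those that did not pass, and up to 3 passing genes of each list and direction by size. Array values of BUB3 and SMC2, and HJURP, CEP55, FOXM1, RBL1, CDK1 and list genes that did not pass, were added after their values were seen. Alternatives were quantile normalization, median centring, a filter on dim rows, array weights, trend and robust moderation, a minimum fold of 1.2, an adjusted p under 0.01, a block of adjacent title numbers, arrays left out, and averaging a gene's rows; counting rows of several symbols was added after the data were seen.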

Additional observations from a re-analysis of the deposited data

Results flagged for a closer look

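In 7 of 96 groups of 5 arrays, an array stood apart from the other 4 by Dixon's test at the 95% level, where chance flags about 1 in 20 groups (4.80 of 96). Ctrl 11 was high for NDC80 (8.12, others 6.39 to 6.89), MIS12 (10.40, others 9.30 to 9.52) and BIRC5 (10.13, others 9.70 to 9.77). Paraquat 18 was low for CENPA (6.76, others 7.23 to 7.37) and CDC25C (6.23, others 6.90 to 7.05). Ctrl 19 was low for KNL1 (7.65, others 7.94 to 8.02), and ctrl 7 was low for AURKB (9.40, others 9.72 to 9.81).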

How the results depend on the processing

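Under 21 alternatives the number of the 48 genes that fell was 42 to 43, except 37 when tested against a minimum fold of 1.2, 40 at an adjusted p under 0.01, 42 of 47 without dim rows (mean up to 5.52), and 47 of 55 with rows of several symbols, where 1 rose (CENPN and CMC2) against 0 in all others. The median change lay between -1.14 and -0.996. Of the 48 genes 41 kept their side of the threshold and direction throughout. The minimum fold ended the calls of CENPC, CENPM, NUF2, ZWINT, BUB3 and SMC2 and left 2 lowered in the centromere and inner kinetochore, 3 among other centromere and kinetochore genes, 0 in cohesin and 1 in other condensins; the stricter threshold ended NUF2, BUB3 and SMC2 and also left 1 condensin. With 1 array left out MIS12 had changes of -0.021 (paraquat 12) to 0.28 (ctrl 11), and did not pass. Ctrl 11 and paraquat 12 left out together gave 1 lowered condensin and 1 raised gene of the anaphase-promoting complex. Array weights gave 5 lowered and 1 raised there. With 1 array left out, lowered genes numbered 3 to 5 in cohesin (5 without paraquat 14) and 1 to 2 in condensins (1 without ctrl 7, ctrl 17, paraquat 18 or paraquat 20), and raised genes 0 to 1 in the anaphase-promoting complex (1 without ctrl 11) and 0 to 1 in other cytokinesis genes (1 without ctrl 19). AURKA minus AURKB then lay between -0.61 and -0.34 and passed without paraquat 8 (-0.60, exact permutation adjusted p = 0.0222) and without ctrl 13 (-0.61, adjusted p = 0.0333). CDC20 minus MAD2L1 lay between -0.57 and -0.34 and passed without ctrl 11 (-0.57, exact permutation adjusted p = 0.0444). Title numbers are not shared between groups. Adjacent numbers as a block, a pairing the labels do not state, gave 43 lowered genes and 5 lowered of the anaphase-promoting complex. Over all rows 5379 passed with the block, against 4397 without it. Deviations of adjacent arrays correlated at 0.09 to 0.46. The adjacent paraquat array correlated best with ctrl 7, 11 and 17, while paraquat 18 correlated best with ctrl 13 and 19.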
